A study of Mus musculus with 2 samples.

Results

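Open promoters with few CpG dinucleotides were regions of accessible chromatin that lay near a transcription start site (TSS) whose surroundings hold hardly any CpG. A region was counted when peaks of both libraries overlapped it, when a protein-coding gene had a TSS at most 1 kb from its centre, and when the nearest such TSS had at most 14 CpG in the 1 kb centred on it. The rule used position and sequence and no signal value. It gave 923 regions, which are 1.57% of the 58659 regions shared by both libraries and 4.66% of the 19825 open promoters. They belonged to 810 genes, of which 715 had 1 such region, 80 had 2, 12 had 3 and 3 had 4. The other 18902 open promoters are called CpG-richer here, and the remaining 38834 shared regions lay away from promoters.

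Frontal cortex was profiled by DNase-seq in female B6CASTF1/J mice, an F1 hybrid of a laboratory strain and the wild-derived CAST strain, at 25 days of age, with no treatment or altered allele named. Whether reads of the CAST allele mapped as well as those of the reference allele cannot be seen in these files, and the signals are printed with that limit. The 2 libraries, called replicate 1 and replicate 2, form 1 group, so no test between conditions was possible and the spread given is that between these 2 libraries. They are labelled as separate biosamples that share a donor identifier, so it may or may not be a spread between animals. The deposited lists hold 85603 and 87847 peaks, each with a depth-normalized signal whose scale is not stated. The sequencing depth is unknown, and each region is described by the signal of its strongest peak in each library.

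DNase I cuts DNA that nucleosomes leave exposed, and a short stretch that resists cutting within an exposed region, a footprint, is read as the trace of a bound protein. Most mammalian promoters lie in CpG islands, which are mostly unmethylated and open in many cell types. Promoters with few CpG are known for genes that are active in few cell types, often carry methylated DNA where silent, and rely on binding sites for cell-type factors and at times on a TATA box. In a tissue of many cell types, a weak signal from many cells and a strong signal from few cells cannot be told apart.

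Most of the sequences shown here hold letters of the insulator protein CTCF, which were frequent in the strongest regions, or of the CCAAT-binding factor NF-Y, shown for regions at the 5′ end of genes. CTCF core or long matches were in a shared footprint in 14 of the 20 strongest regions, and CCAAT and the E-box CAGATG in 3 each. Over the 923 regions these shares were 22.2%, 2.06% and 5.53%. The long CTCF motif was there in 10 of the 20. The short core was in a shared footprint in 12.6% of the 923 regions and 13.9% of CpG-richer open promoters. Each sequence is the GRCm38 (mm10) reference on the strand of the gene, trimmed so that no annotated UTR is included. Capitals mark a motif match that overlaps bases inside a footprint in both libraries. Of the 12 strongest regions with such a match outside a UTR, 9 are given, and 5 more were chosen after their values were seen. A match describes letters under a footprint and does not show which protein was bound. The first 5 hold the long CTCF motif, a pattern with variable bases that was added to the search after sequences were seen. Its match in Rnf141 overlaps the YY1 letters AAGATGGCG, and its match in Abr contains the E-box CAGATG.
Abr, chr11:76578021-76578123, minus strand: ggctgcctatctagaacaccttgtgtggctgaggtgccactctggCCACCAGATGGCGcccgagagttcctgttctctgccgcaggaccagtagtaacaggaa
Rnf141, chr7:110801193-110801295, minus strand: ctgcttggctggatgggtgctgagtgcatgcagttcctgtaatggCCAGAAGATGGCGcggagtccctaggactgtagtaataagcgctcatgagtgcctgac
Mgrn1, chr16:4913862-4913964, plus strand: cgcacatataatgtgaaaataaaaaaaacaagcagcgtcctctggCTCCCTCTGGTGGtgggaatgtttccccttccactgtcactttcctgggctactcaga
Grn, chr11:102434559-102434661, plus strand: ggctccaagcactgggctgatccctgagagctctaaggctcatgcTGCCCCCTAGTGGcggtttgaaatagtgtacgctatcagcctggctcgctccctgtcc
Ccdc13, chr9:121831069-121831171, minus strand: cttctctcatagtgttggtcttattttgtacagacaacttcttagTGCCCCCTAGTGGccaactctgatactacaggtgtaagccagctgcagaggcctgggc

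In the next pair the shorter CTCF core AGGNGGC was in the shared footprint, on the opposite strand in Tmem270.
Tmem270, chr5:134907261-134907337, minus strand: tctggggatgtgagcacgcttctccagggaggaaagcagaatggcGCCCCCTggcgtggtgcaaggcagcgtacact
Pcp4, chr16:96467549-96467605, plus strand: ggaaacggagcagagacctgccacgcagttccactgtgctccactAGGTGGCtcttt

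The next 5 regions are at the annotated 5′ end of a gene and held a CCAAT box in a shared footprint, which reads ATTGG on the strand of the gene. Pcp4 held one as well. The 5 include 3 genes of MHC class II, H2-Eb1, H2-Aa and H2-Ab1, whose proteins present antigen to T cells. MHC class II promoters are known for an X box followed by a Y box, the latter an inverted CCAAT. The H2-Aa sequence also has the full cAMP response element TGACGTCA in a shared footprint, upstream of its ATTGG.
H2-Eb1, chr17:34305763-34305857, plus strand: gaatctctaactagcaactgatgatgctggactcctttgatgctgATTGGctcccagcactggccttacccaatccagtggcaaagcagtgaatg
H2-Aa, chr17:34287824-34287916, minus strand: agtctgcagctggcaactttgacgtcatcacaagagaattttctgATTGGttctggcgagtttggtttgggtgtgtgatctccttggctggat
H2-Ab1, chr17:34257724-34257818, plus strand: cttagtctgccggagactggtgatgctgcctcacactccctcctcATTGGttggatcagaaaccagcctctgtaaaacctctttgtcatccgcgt
Fez1, chr9:36821794-36821863, plus strand: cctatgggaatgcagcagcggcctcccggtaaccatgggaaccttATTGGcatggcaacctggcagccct
Fabp7, chr10:57784822-57784880, plus strand: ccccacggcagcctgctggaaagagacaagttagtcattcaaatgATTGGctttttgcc

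The last 2 are the strongest region of all, Uggt2, with the EGR motif GTGGGCG in a shared footprint, and Lgi4, where the E-box CAGCTG was in a shared footprint, as was a long CTCF match.
Uggt2, chr14:119007533-119007629, minus strand: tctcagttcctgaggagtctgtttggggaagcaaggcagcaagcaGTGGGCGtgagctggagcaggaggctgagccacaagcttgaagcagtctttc
Lgi4, chr7:31059179-31059274, plus strand: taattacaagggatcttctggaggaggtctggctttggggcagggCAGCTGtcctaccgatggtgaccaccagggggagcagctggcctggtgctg

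Open promoters with few CpG had about the signal of open regions away from promoters. In replicate 1 their signal had a median of 0.735, with 10% of regions below 0.396 and 10% above 1.66. In replicate 2 the median was 0.822, with 10% below 0.451 and 10% above 1.78. Medians in the CpG-richer open promoters were 1.42 and 1.47. The ratio of the medians was 0.539 ± 0.0277 (SD, n = 2), or -0.89 ± 0.07 on the log2 scale, and both libraries lay far from a ratio of 1. Medians away from promoters were 0.695 and 0.799, a ratio of 0.517 ± 0.0365 to the CpG-richer promoters. Within each library the regions with few CpG lay slightly above the distal ones, by a ratio of 1.06 in replicate 1 and 1.03 in replicate 2. In 115 of the 923 regions (12.5%, exact 95% interval 10.4% to 14.8%) the signal was above the CpG-richer median in both libraries, against 12.3% of regions away from promoters. Intervals here are of the exact Clopper-Pearson kind and express counting error over regions or genes alone.

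**Figure D1:**
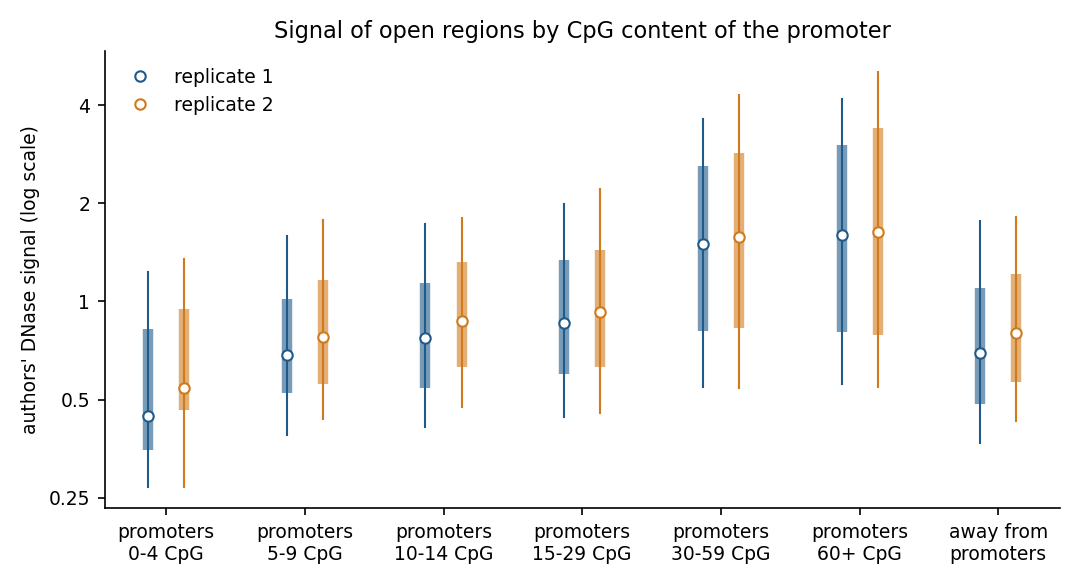
Authors' DNase signal (vertical axis, log scale, unit not stated) of open promoters in classes of CpG count around the nearest TSS and of open regions away from promoters, by library. Circles are medians, thick bars run from the 25th to the 75th percentile and thin lines from the 10th to the 90th. The 3 classes with at most 14 CpG have medians of 0.446 to 0.771 in replicate 1 and 0.542 to 0.874 in replicate 2, and those with 30 or more have medians of 1.497 to 1.63.

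Signal also rose with CpG count within the group. The 47 regions with 0 to 4 CpG had medians of 0.446 and 0.542, the 296 with 5 to 9 had 0.684 and 0.779, and the 580 with 10 to 14 had 0.771 and 0.874. The order of the classes was the same in both libraries. Across the 923 regions the CpG count and the mean signal had a Spearman rho of 0.166, a description across regions of the same 2 libraries. No step was seen at the limit of 14. Promoters with 13 CpG had medians of 0.794 and 0.777 and those with 14 had 0.831 and 0.931, while just outside the limit those with 15 had 0.689 and 0.765 and those with 16 had 0.876 and 0.954.

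The regions were also narrower, at a median width of 220 bp against 280 bp in CpG-richer open promoters and 220 bp away from promoters. Their 300 bp windows had a median of 4 CpG and 51.0% G and C, against 23 CpG and 64.0% in the CpG-richer promoters and 5 CpG and 50.3% in distal regions. The low CpG count follows from the rule, and a limit on CpG also favours a lower share of G and C. The match in width with distal regions was not part of the rule.

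Few genes with a CpG-poor start were open there. Of 6304 protein-coding genes with at most 14 CpG around the annotated 5′ end, 294 (4.66%, interval 4.16% to 5.21%) had a shared region centred within 1 kb of it, while among all 21938 protein-coding genes the share was 56%. These 294 genes include those whose open region lay nearer to another TSS. The share climbed steadily with CpG count. It was 0.365% of 821 genes with 0 to 2 CpG, 1.71% of 1055 genes with 5 to 6, 6.604% of 848 genes with 9 to 10 and 13.8% of 614 genes with 13 to 14. It went on to 17.9% with 15 to 16, 52.4% with 26 to 30 and 93.8% with 81 or more. The limit of 14 therefore lies on a slope of this share, with no step at it. Whether genes form separate classes by CpG count was not tested.

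**Figure D2:**
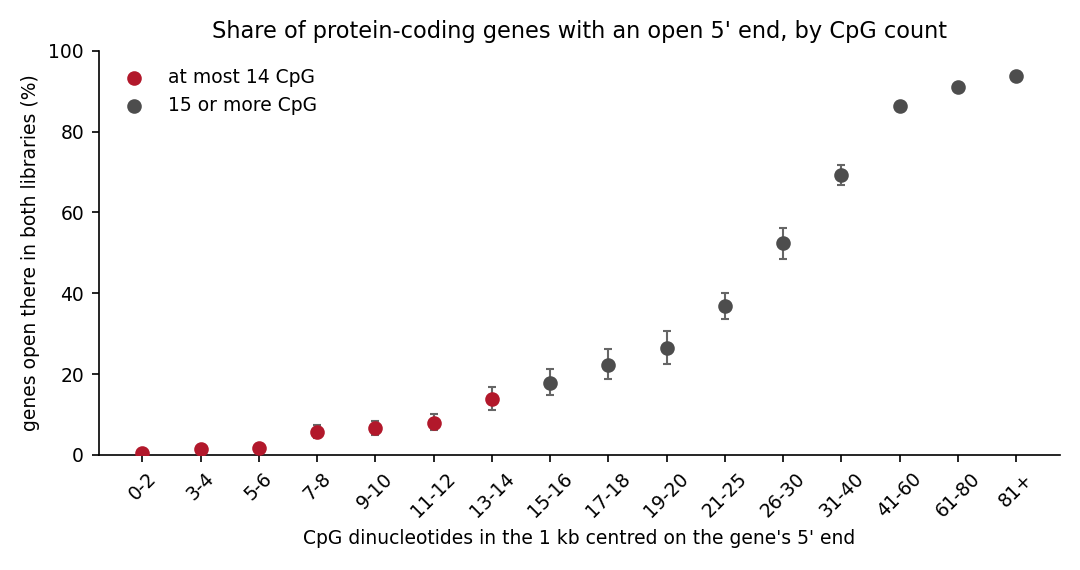
Share of protein-coding genes with a region open in both libraries within 1 kb of the annotated 5′ end (vertical axis, %) by CpG count in the 1 kb around that end. Points are shares, bars are exact 95% intervals over genes, and red marks at most 14 CpG. The share climbs from 0.365% to 13.8% over the red classes and reaches 93.8% at 81 or more CpG.

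Open CpG-poor 5′ ends also had the lower signal. The strongest region there had medians of 0.887 and 0.934, against 2.30 and 2.47 at open CpG-richer 5′ ends.

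Most of the 923 regions did not sit on a gene's main start. Only 307 (33.3%, interval 30.2% to 36.4%) covered the nearest TSS, against 65.6% of CpG-richer open promoters. The nearest TSS was the annotated 5′ end of the gene in 183 (19.8%) against 52.6%, and the transcript starting at the nearest TSS was a protein-coding one in 452 (49.0%) against 77.1%. The centre was in an intron in 539 (58.4%) against 25.9%, and outside coding genes in 102 (11.1%) against 33.0%. In 278 (30.1%) the centre was within 100 bp of the TSS and in 339 (36.7%) it was 500 bp or more away, against 53.4% and 15.04%. The other 616 regions were near an annotated CpG-poor TSS without covering it, so the word promoter holds for them by distance alone. The intervals of these shares in the 923 regions did not reach the CpG-richer values.

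Position on the TSS went with little difference in signal. The 307 regions covering a TSS had medians of 0.740 and 0.834, and the 616 that did not had 0.732 and 0.817. The 77 regions that covered the TSS at a gene's 5′ end had 0.718 and 0.817. Within each library, the regions covering a TSS had 1.01 and 1.02 times the median of those that did not.

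The tables of cut rates gave the same picture by base. A false discovery rate under 0.001 was reached most often 40 bp upstream of the TSS in replicate 1 and 43 bp upstream in replicate 2, in 25.3% and 25.4% of the promoters with few CpG. CpG-richer promoters reached 79.1% and 74.6%, at 37 and 33 bp upstream. The profile around CpG-poor starts was thus a low peak on a flat base, and it was nearly the same in the libraries. It took in the 616 regions that did not cover the TSS, and no profile was made for the other 307 alone.

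**Figure D3:**
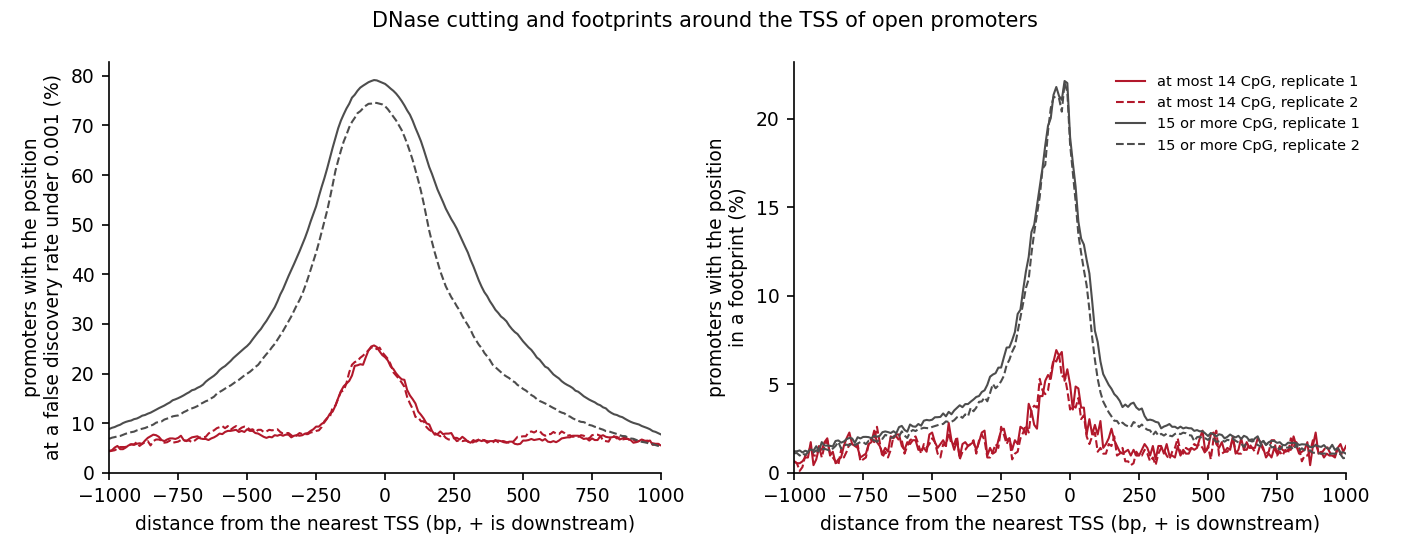
Share of open promoters (vertical axes, %) in which each position around the nearest TSS (horizontal axes, bp) had a false discovery rate of the cut rate under 0.001 (left) or lay in a footprint (right). Red is at most 14 CpG and grey is 15 or more, with a line for each library. The red lines peak at 25.3% and 25.4% on the left and at 6.69% and 6.57% on the right, the grey lines at 79.1% and 74.6% and at 21.9% and 21.6%.

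Footprints were about as common as elsewhere. Of the 923 regions, 760 (82.3%) held a footprint in both libraries, close to the 84.6% of all shared regions and the 85.5% of CpG-richer open promoters. The mean number of footprints per region was 2.26 ± 0.0866 (SD, n = 2), below the 3.89 ± 0.304 of CpG-richer promoters and slightly below the 2.33 ± 0.129 of distal regions, in both libraries. Footprints of the 2 libraries overlapped in 615 regions (66.6%) against 76.0% of CpG-richer promoters. The authors' shorter peak list held 458 of the regions in both libraries (49.6%, interval 46.3% to 52.9%), below the 59.5% of all shared regions and the 76.9% of CpG-richer promoters and near the 51.3% of distal regions. Of the 77 regions covering the TSS at a gene's 5′ end, 50 (64.9%) were on it.

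Most of the genes with an open CpG-poor promoter also had a CpG-richer start, as did 16854 of all 21938 protein-coding genes. Of 810 genes, 653 had a TSS with more than 14 CpG, and in 518 of these (79.3%) a CpG-richer promoter was open too. Among all 16854 protein-coding genes with such a TSS the share was 72.2%. The CpG-richer promoter of the same gene had the higher signal by a median of 2.40-fold in replicate 1 and 2.19-fold in replicate 2 (log2 ratio -1.20 ± 0.09, SD, n = 2). In 79 of the 518 genes (15.3%) the CpG-poor promoter was the stronger in both libraries. Where the nearest TSS was not the gene's 5′ end, it lay a median of 22884.5 bp from that end.

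The strongest regions were placed much like the rest. Of the 20 with the highest mean signal, 12 had their centre in an intron (60%, against 58.4% of the 923), 4 lay at a gene's 5′ end (20%, against 19.8%) and 17 belonged to genes with a CpG-richer TSS (85%, against 81.7%). Uggt2, an enzyme of glycoprotein folding control in the endoplasmic reticulum, had 4.04 in replicate 1 and 6.13 in replicate 2 at an internal TSS with 13 CpG. Both values were the highest of the group, and the region held 4 shared footprints. Sfi1, a centrosome protein, had 3.29 and 4.82. Tmem270 had 3.77 and 3.89, in a region centred 618 bp upstream of its 5′ end, which has 10 CpG. Pcp4, a small regulator of calmodulin, had 3.18 and 3.60, with the centre 5 bp from its 5′ end. It was the strongest region that covered the TSS at a 5′ end.

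Among the rest of the 20, Atp2b2, a calcium pump of the plasma membrane, had 2.68 and 3.89, and Abr, a regulator of small GTPases, had 3.23 and 3.31. Grn, which encodes progranulin, had 2.57 and 2.97 over an alternative TSS, centred 107 bp upstream of it. Plxnc1, a semaphorin receptor, had 2.54 and 2.71, and Arpc5, a subunit of the Arp2/3 complex, had 2.47 and 2.64. The 20 ran from a mean of 5.09 (Uggt2) to 2.44 (Mtss1, an actin and membrane-binding protein). The weakest of all was a region of Ermard with 0.0904 and 0.0685, a mean of 0.0795, which has near-identical copies elsewhere in the genome, so its reads may be shared.

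CTCF-type sequence was common in the strongest of these promoters. The long CTCF motif was present in the 300 bp window of 26.1% of the 923 regions, 17.9% of CpG-richer open promoters, 18.3% of all open promoters, 26.5% of distal open regions and 5.05% of CpG-poor TSS without a peak. It lay in a shared footprint in 172 regions (18.6%), against 7.69% of CpG-richer promoters. The long motif was added to the search after sequences were seen. Among the 231 strongest regions, 43.7% had it in the window, and among the 230 weakest, 11.7%. Its share in a shared footprint was 40.3% against 1.74%, with footprints called from the same cuts as the signal. The short core AGGNGGC was in the window of 46.8% of the strongest and 22.6% of the weakest. The 172 regions had median signals of 1.26 and 1.20, and the other 751 had 0.661 and 0.754. CpG-richer promoters with such a footprint had 2.20 and 2.23. These CTCF-type regions were away from the TSS more often, with a median distance of 473.5 bp against 256 bp, and 33 of the 172 covered it (19.2%) against 36.5%. The examples printed above carried strong signals in both libraries. Mgrn1, a ubiquitin ligase, had 2.68 and 3.03, Ccdc13 had 2.83 and 2.64, and Rnf141 had 2.90 and 3.22.

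A smaller set sat on the 5′ end of genes. Of the 77 regions that covered a TSS at a 5′ end, 7 had a long CTCF match in a shared footprint (9.09%) and 7 had a CCAAT box there (9.09%), against 18.6% and 2.06% of the 923. Pcp4, Lgi4 and Hsd3b7, 3 of the 4 strongest of the 77, had a core or long CTCF match in a shared footprint. The examples that follow were chosen after their values were seen. H2-Eb1 had 2.70 and 2.72, H2-Aa had 1.94 and 1.91, and H2-Ab1 had 1.93 and 1.76. All 3 MHC class II regions were above the CpG-richer median in both libraries. The 19 regions of the whole group with a CCAAT box in a shared footprint had medians of 1.46 and 1.78, again with footprints called from the same cuts as the signal. In CpG-richer promoters 6.03% had it there. The letters alone were not more frequent in strong regions. They were in 30.3% of the windows of the strongest 231 and 30.9% of the weakest 230, in 29.5% of the 923 regions, 32.6% of CpG-richer promoters and 36.5% of CpG-poor TSS without a peak. A list of 11 MHC class II genes, also written after these were seen, has 10 with a CpG-poor 5′ end, and the 3 named were the open ones. Cd74, the invariant chain of the same pathway, H2-Eb2 and H2-DMb2 had no peak within 1 kb of any TSS in either library. H2-Eb1 owned a further region 916 bp upstream, with 1.11 and 1.30.

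Of the other 5′ ends, Lgi4, a secreted protein of glia that acts in myelination, had 2.34 and 2.38. Fez1, an adaptor of axonal transport, had 1.97 and 2.29, and Fabp7, a fatty-acid-binding protein of radial glia and astrocytes, had 1.46 and 2.05. Hsd3b7, an enzyme of bile acid synthesis, had 2.27 and 2.36, with a long CTCF match in a shared footprint. Iqub had 1.68 and 2.60, the widest gap between libraries among these. All were within 2-fold between the libraries.

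**Figure D4:**
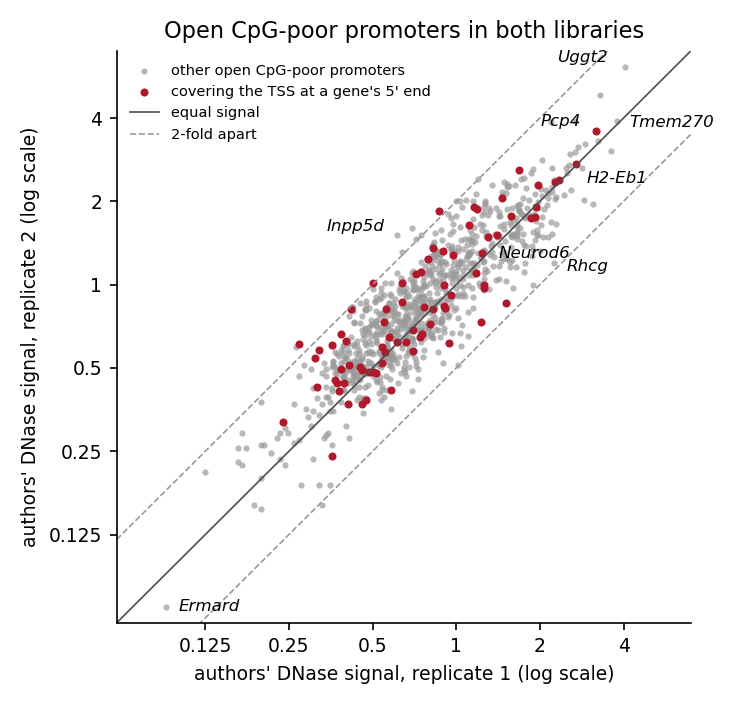
Authors' DNase signal of each of the 923 open promoters with few CpG in replicate 1 (horizontal) and replicate 2 (vertical), both on log scales. Red points cover the TSS at a gene's 5′ end, the solid line is equal signal and dashed lines are 2-fold. Of the 923 points, 12 lie beyond the dashed lines, and Uggt2 at 4.04 and 6.13 is the highest.

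Few marker genes of cortical cells were in the group. Of 23 neuronal genes listed, 5 had a CpG-poor 5′ end and 1 was open there. This was Neurod6, a transcription factor of pyramidal neurons, with 1.30 and 1.48 over its TSS and the E-box CAGATG in a shared footprint. Slc17a7, the vesicular glutamate transporter of excitatory neurons, was represented by an internal TSS, at 0.831 and 1.26. Of 4 channel genes with a CpG-poor 5′ end, 2 were open there. They were Scn2a and Scn3a, sodium channels of neurons, with 0.961 and 0.919 and with 0.718 and 1.10. Both had a long CTCF match in a shared footprint. Scn2b, a further sodium channel gene, had no peak in either library. Of 5 glutamate and GABA receptor genes with a CpG-poor 5′ end, 1 was open there. Vip, the neuropeptide of a class of interneurons, had no peak at any TSS in either library, and of the 5 neuropeptide genes with a CpG-poor 5′ end, itself among them, 0 were open there.

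The listed glial markers with a CpG-poor TSS showed weak or no opening. Lgi4 and Fabp7, described above and not on these lists, had higher signals. Of 2 astrocyte genes with a CpG-poor 5′ end, 1 was open there. This was S100b, a calcium-binding protein of astrocytes, with 0.599 and 0.811 and no shared footprint. Of 9 microglial genes with a CpG-poor 5′ end, 1 was open. Trem2 and Cx3cr1, receptors of microglia, had 0.531 and 0.463 and 0.333 and 0.520, all below the group medians, at other starts of the gene, while P2ry12, Csf1r and Tyrobp had no peak. No region was open at the 5′ end of any of the 6 oligodendrocyte genes with a CpG-poor 5′ end, Mog and Mag among them. No CpG-poor 5′ end was open in several further lists, with 0 of 3 genes of oligodendrocyte precursors, 0 of 1 of vessel cells, 0 of 10 liver genes, 0 of 5 erythroid genes and 0 of 5 lymphocyte genes open. Of 7 muscle and heart genes 1 was, Ckm, the muscle creatine kinase, with 1.99 and 1.32 in a region 785 bp inside the gene. That region had a long CTCF match in a shared footprint. With the background at 4.66% of all CpG-poor 5′ ends, lists of this size give counts only.

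Genes of the olfactory receptor, vomeronasal receptor and defensin families were rarely or never found open. Of 1117 olfactory receptor genes with a CpG-poor 5′ end, 6 were open there (0.537%), against the 4.66% of all CpG-poor 5′ ends, and of 326 vomeronasal receptor genes and 59 defensin genes, none were. Other large families were nearer to that background, with 4 of 69 solute carrier genes (5.80%), 2 of 69 cytochrome P450 genes (2.90%), 2 of 53 keratin and keratin-associated genes (3.77%) and 2 of 48 serpin genes (4.17%) open. The background was not matched to a family's CpG counts. Over all protein-coding genes, 0.365% were open at 0 to 2 CpG, 1.36% at 3 to 4 and 13.8% at 13 to 14. The part of CpG count in the family shares was not tested. The strongest olfactory receptor region was that of Olfr459, with 1.02 and 1.19, centred 724 bp from its TSS. Some immune families had higher shares on small counts, and so did some other families. Of 31 chemokine and receptor genes 2 were open (6.45%), of 39 interleukin and receptor genes 4 (10.3%), and of 12 complement genes 4 (33.3%). The complement regions included C1rl with 1.40 and 1.51, C1rb with 1.51 and 0.857, and C1ra with 0.881 and 1.20. C1rl had a CTCF core match in a shared footprint, and C1rb and C1ra each had a long CTCF match in one. Il6, a cytokine, had 2.28 and 2.08 at an internal TSS, above the CpG-richer median in both libraries. Of 38 genes named Zfp, 4 were open (10.5%), of 40 genes named Tmem 4 (10%), and of 26 genes named Gpr 4 (15.4%). Gpr61, an orphan receptor of the Gpr family, had 1.11 and 1.64 at its 5′ end. Of 10 S100 genes 3 were open, S100a7a with 1.97 and 1.99 being the strongest. That region was centred 946 bp upstream of the 5′ end and had a long CTCF match in a shared footprint.

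In their motif content the open CpG-poor promoters lay close to distal open regions. The GC box GGGCGG of SP and KLF factors was found in 12.1% of the 300 bp windows, against 62.0% of CpG-richer promoters, 59.7% of all open promoters and 13.1% of distal regions. The ETS letters CCGGAA followed the same order, with 4.44%, 23.3%, 22.4% and 5.81%. Both motifs contain CpG, which the rule limits. In the other direction, the E-box CAGATG, the type bound by proneural factors such as the NeuroD family, was found in 30.2% (interval 27.3% to 33.3%), against 11.6%, 12.5% and 31.4%. The AP-1 site TGANTCA was found in 15.1%, against 4.41%, 4.903% and 15.8%, and the SOX site ACAANG in 46.0%, against 29.5%, 30.2% and 45.3%. None of these shares was adjusted for base composition, which also differed between these promoters and the CpG-richer ones. CAGATG can also lie within a long CTCF match, as in Abr. Of the 172 regions with a long CTCF match in a shared footprint, 15 had CAGATG in one.

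CpG-poor TSS without a peak meet the same CpG limit and were not detected as open in either library. In windows of the same length around 26400 such TSS, CAGATG was found in 23.3%, AP-1 in 9.59%, CAGCTG in 17.6% against 26.4% of the open regions, and GGGCGG in 4.38%. The SOX site was more frequent there, at 51.4%, as was TATAAA anywhere in the window, at 21% against 9.97%. The CAGATG share of the open regions depends on the choice of TSS. With 1 TSS per gene it was 21.3%, below the 23.3% of the starts without a peak. Those starts were counted over any transcript and not recounted with 1 TSS per gene, so the difference under that choice is not known. The windows without a peak were centred on the TSS and the open windows on the region, which lay a median of 321 bp from the TSS. Within the CpG limit, the share of genes open at the 5′ end rose with CpG count. The starts without a peak were not matched to the open regions in CpG count or base composition. The part of either in the differences between their motif shares was not tested.

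**Figure D5:**
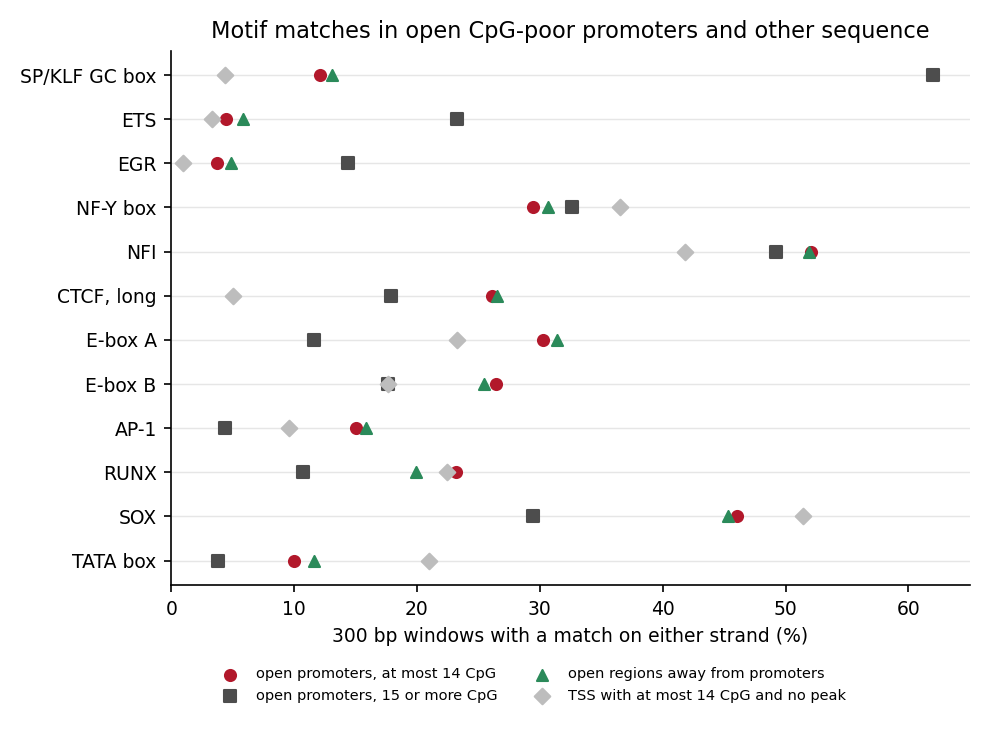
Share of 300 bp windows (horizontal axis, %) with a match to each of 12 motifs on either strand, in open promoters with at most 14 CpG (circles), open promoters with 15 or more (squares), distal open regions (triangles) and CpG-poor TSS without a peak (diamonds). E-box A is CAGATG and E-box B is CAGCTG. For the SP/KLF GC box the circle is at 12.1% and the square at 62.0%, and in most rows the circle lies beside the triangle.

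A TATA box at the usual place was rare. TATAAA, read on the strand of the gene from 40 to 20 bp upstream of the nearest TSS, was found in 12 of 923 regions (1.30%, interval 0.674% to 2.26%), 0.767% of CpG-richer open promoters and 2.17% of CpG-poor TSS without a peak. The interval holds the value of the CpG-richer promoters and that of the starts without a peak. The 12 had median signals of 0.757 and 0.722. Of the 12, 4 covered the TSS: Ecm1, an extracellular matrix protein, with 0.825 and 0.817, Phactr1, an actin-binding regulator of phosphatase, with 0.859 and 0.685, Pkia, an inhibitor of protein kinase A, with 0.576 and 0.525, and the keratin-associated Krtap10-10 with 0.311 and 0.542.

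The regions with fewest CpG had mostly low signals. Capn7, a calpain protease, had 0 CpG around an internal TSS and 1.02 and 0.925. The gene 4931408C20Rik had 0 CpG at its 5′ end and 2 open regions, of 0.412 and 0.514 over the TSS and of 0.328 and 0.480 upstream. Olfr434 and R3hdm1 had 1 CpG, with 0.503 and 1.01 and with 0.384 and 0.582. Among these the Capn7 region alone was above the group medians in both libraries.

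The libraries ranked the regions alike. Spearman's rho between them over the 923 regions was 0.879, against 0.963 over CpG-richer promoters and 0.862 over distal regions. The value was over 2-fold apart in 12 regions (1.30%), while the background over all shared regions was 1.75%. Of the largest gaps, Inpp5d, a phosphatase of blood cells and microglia, had 0.610 and 1.51, Herc6 had 0.695 and 1.60, and Akr1c18, a steroid-metabolizing enzyme, had 0.870 and 1.85. In the other direction Rhcg, an ammonia transporter, had 2.25 and 1.20, Coro7 had 1.89 and 0.999, and Blcap had 0.328 and 0.160. With 1 group of 2 libraries these gaps describe the libraries. Near-identical sequence elsewhere in the genome was found for 10 regions, and without them the medians were 0.735 and 0.822.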

How the data were processed

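The DNase-seq files were those the authors deposited for 2 libraries. All coordinates are mm10, per the file headers, and were read on GRCm38.p6 (the same build) with GENCODE vM21. Aligner, callers and versions: not given in the sources used here. The labels describe an F1 hybrid, and 1 reference genome was used. Column 7 of each deposited peak list is the authors' signal, normalized for depth on a scale not stated. The deposited cut-rate tables list the authors' false discovery rate (a q-value) per position up to 0.05, and the deposited footprints carry 1 constant score.

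Peaks of the longer lists were merged across libraries where they overlapped by at least 1 bp. CpG were counted in 1000 bp around the TSS of any transcript. A region's signal was that of its strongest peak in each library. Motifs were searched on both strands in 300 bp around the region's centre, and TATAAA also from 40 to 20 bp upstream of the TSS. A shared footprint is one whose bases lie in footprints of both libraries. Near-identical copies (at least 95% identity over 90% of the length) were found with BLAST+ 2.17.0, with seeds outside repeats. Other steps used Python 3.11.15, numpy 2.4.6, scipy 1.17.1 and matplotlib 3.10.9, and were tested on simulated data. No test between groups was possible with 1 group, so values are medians, counts and shares.

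Besides those in the report, the motifs were CACGTG for E-box proteins, GCGCATGCG for NRF1, GTTGCCATG for RFX, TTCAGCACC for REST, CTATTTATA or CTATTTTTA or CTAAAAATA for MEF2, AAAGGTCA or TAGGTCA for nuclear receptors, ATGNAAAT for POU proteins, TAATTA for homeodomain proteins, TTGGC for NFI, TGTGGT for RUNX, GAGGAAG for PU.1, AGATAA for GATA factors, TGTTTAC for FOX, GGAATG for TEAD, TTACNTAA for PAR bZIP proteins, TTGCGCAA for C/EBP and the CArG box for SRF. The NFI site overlaps the reversed NF-Y box, the EGR site overlaps the GC box, and the CTCF core lies partly within the long CTCF motif. A long CTCF match can also contain CAGATG.

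The promoters, gene lists and motifs were chosen with earlier results of these data known. Named genes were the 20 regions of highest mean signal, up to 4 open and 3 genes without a peak per list or family, the 5 with the fewest CpG, the 5 largest gaps between libraries in each direction and the 5 with the most shared footprints. Regions at 5′ ends, those with TATAAA, the weakest region and the MHC class II list were added after their values were seen. Some genes this rule takes are not reported here. Alternatives changed the CpG limit, the distance, the TSS set, the overlap, the peak list, the libraries, the signal summary, the footprint rule and the TATA pattern.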

Additional observations from a re-analysis of the deposited data

How the results depend on the processing

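The lower signal of promoters with few CpG held its direction in every setting tried, at -0.78 to -1.11 on the log2 scale relative to CpG-richer promoters. With a CpG limit of 10 there were 436 regions, with a median signal of 0.705, a relative value of -1.01, footprints in both libraries in 78.7% and 2.98% of genes open. With a limit of 20 there were 1826 regions and 8.09% of genes open. With the centre within 500 bp there were 584 regions, at -1.11, with 52.9% on the shorter list and 2.54% of genes open. With 1 TSS per gene there were 314 regions, at -0.99, with footprints in 85.0%, 60.5% on the shorter list, TATAAA in 2.87% and CAGATG in 21.3% against 30.2%. A reciprocal overlap of 50% gave 761 regions. The values were then 0.847, -1.05, 85.5%, 56.5% and 4.05% for the signal, the relative value, footprints, shorter list and genes. The shorter peak list gave 459 regions, a signal of 1.13, -0.82, footprints in 93.5% and 2.98% of genes. With either library alone there were 1432 to 1505 regions, signals of 0.571 to 0.640, relative values of -0.79 to -0.78, footprints in 77.1% to 79.1%, 5.92% to 6.33% of genes open, and 45.6% to 50.4% on the shorter list. TATAAA within 100 bp upstream was found in 3.14%, and TATAAA or TATATA or TATAAG in 2.60%. The cause of these shifts was not tested, beyond the fewer or more regions that each setting takes in. For signals and shares, the other settings moved no value beyond the spread between the libraries or the interval of the share. The CAGATG share under each setting was added after seeing the data. No paired analysis was possible because there is 1 group and nothing to pair it with. The depth of the libraries is unknown, so a start without a peak was not detected as open, and is not shown to be closed.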

Other observations

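CpG-poor promoters were a larger share of the promoters found in a single library than of the shared ones. Among promoters open in replicate 1 alone, 503 had few CpG (8.67%), and in replicate 2 alone 562 did (13.7%), against 4.66% of the promoters open in both. Their median signals were 0.418 and 0.434, below the shared CpG-poor promoters, and CpG-richer promoters found in a single library had 0.469 and 0.520.

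Open CpG-poor promoters with a long CTCF match in a shared footprint were higher in replicate 1 in 87 of 172 regions (50.6%), and those without it in 214 of 751 (28.5%). The share higher in replicate 1 was 39.6% of CpG-richer promoters with such a match and 37.7% of all CpG-richer promoters. The scale of the signal differed between the libraries, and the part of that in these shares was not tested. By chromosome, open CpG-poor promoters made up from 2.74% (chromosome 18) to 7.01% (chromosome 14) of the open promoters.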
